A study of Homo sapiens with 20 samples.

Results

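Oncofetal genes are active in embryos and in many tumours, and many of them, though not all, are mostly silent in adult tissue. LIN28B, HMGA1, HMGA2, IGF2BP1, IGF2BP2, IGF2BP3 and TRIM71 form a group of such genes, and all are known targets of the let-7 microRNAs. They were followed through neuronal differentiation of human neural progenitor cells (NPCs). A member was any coding record that carried one of these symbols, with the record of highest mean level kept where a symbol had several, and each symbol had 1 record. The 7 records were 7 of 20237 coding records and of 38369 records in all, the rest being long intergenic noncoding RNAs (lincRNAs).

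The cells were derived from H1, a widely used embryonic stem cell line of human origin, and had been made into NPCs before the course began. Day 0 cultures had grown in FGF-containing proliferation medium, and differentiation was started by removing FGF and adding BDNF. Polyadenylated RNA of 20 cultures was sequenced, 3 on each of days 0, 1, 2, 4, 11 and 18 and 2 on day 5, where the submitters had removed an outlier. All cultures came from this 1 cell line, and those of days 5, 11 and 18 were replated on day 4 onto poly-D-lysine and laminin, so that replating and time past day 4 cannot be told apart. No cultures kept in proliferation medium to the later days were among the samples.

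Each record had 1 value per day, the authors' FPKM (fragments counted per unit of transcript length and of sequencing depth) estimated over the cultures of that day. The spread between cultures could therefore not be computed, no difference below has a test or an error, and library depth is unknown. Differences are given on the log2(FPKM + 0.1) scale, which slightly understates changes of low genes, and "past 2-fold" means a log2 difference of at least 1 in size. Comparison was made with the 11793 coding records whose mean over the 7 days was at least 1 FPKM, a minimum that all 7 members passed. The FPKM of all records summed to 413978 on day 0 and 251156 on day 18, and the 14443 records of either class above the minimum had a median change of −0.56 between these days, so the day 18 differences are also given relative to that median.

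let-7 microRNAs accumulate as cells leave the stem cell state, and they lower their targets by pairing of a short seed near the 5′ end of the microRNA with sites in the 3′ UTR. LIN28A and LIN28B are RNA-binding proteins that hold back let-7 maturation and are themselves let-7 targets, which makes a double-negative loop. HMGA1 and HMGA2 are small chromatin proteins that bend AT-rich DNA and are known in neural stem cells for sustaining self-renewal, the IGF2BP proteins bind and stabilise mRNAs in the cytoplasm, and TRIM71, the relative of worm lin-41, represses mRNAs and keeps progenitors undifferentiated.

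The let-7 sequences show what the members have in common. The 9 mature let-7 forms in the RefSeq-based table (GRCh38.p14) shared 1 seed at bases 2 to 8, and differed from let-7a at up to 4 of their 22 bases. A few forms that show this are printed 5′ to 3′ with the seed in capitals.
let-7a-5p: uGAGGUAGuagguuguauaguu
let-7d-5p: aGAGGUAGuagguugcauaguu
let-7i-5p: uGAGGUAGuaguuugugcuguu
miR-98-5p: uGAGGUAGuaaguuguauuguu

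The 7 letters that pair with this seed, CTACCTC, were sought on the transcript strand of the annotated 3′ UTR (GENCODE on hg19), and the 8-letter form CTACCTCA, with an A after the match, was noted as a subset of the first. Every member held at least 1 match. The match nearest to the stop codon is printed for each member and for LIN28A as 22 bases of the hg19 reference, with the matching letters, and the A where present, in capitals.
LIN28B, chr6:105526688-105526709, plus strand: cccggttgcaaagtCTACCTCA
LIN28A, chr1:26753840-26753861, plus strand: cacagcctattgaaCTACCTCA
HMGA1, chr6:34213607-34213628, plus strand: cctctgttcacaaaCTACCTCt
HMGA2, chr12:66357079-66357100, plus strand: ccaacgttcgatttCTACCTCA
IGF2BP1, chr17:47128424-47128445, plus strand: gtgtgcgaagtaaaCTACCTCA
IGF2BP2, chr3:185362008-185362029, minus strand: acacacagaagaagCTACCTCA
IGF2BP3, chr7:23351414-23351435, minus strand: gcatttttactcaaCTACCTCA
TRIM71, chr3:32933461-32933482, plus strand: acattgcttaagtcCTACCTCA

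TRIM71 held 6 matches in its 3′ UTR, and LIN28B, HMGA2 and IGF2BP1 held 4 each. HMGA1, IGF2BP2 and IGF2BP3 held 1 each, as did LIN28A. An A followed 4 of the matches of TRIM71, 3 of those of IGF2BP1, 2 of those of LIN28B and 1 of those of HMGA2. It also followed the single matches of IGF2BP2 and IGF2BP3 but not that of HMGA1. The first match of HMGA2 began 21 bases after the stop codon and that of LIN28B 44 bases after it, whereas that of IGF2BP1 began 1632 bases after it.

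Of the expressed coding records, 11192 could be matched to an annotated 3′ UTR (94.9%), and 11.3% of these held at least 1 match and 4.41% at least 1 followed by A. Over the 19382 annotated genes of any level, 9.78% held a match. Only 29 of the 11192, or 0.259%, held 3 or more, and 4 of these 29 were members. No expressed record held more matches than TRIM71. The members are known let-7 targets by choice, so these counts describe them and test nothing.

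**Figure D1:**
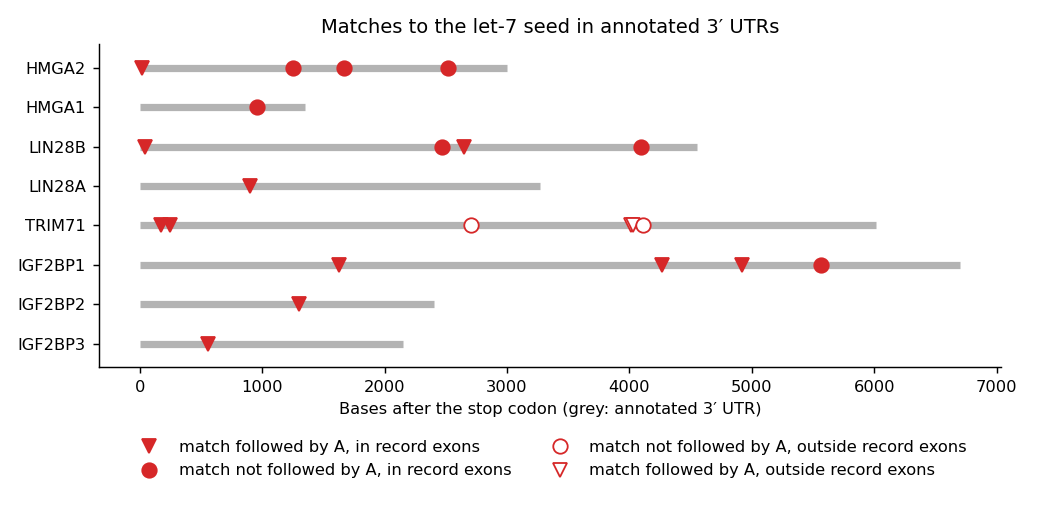
Position of each CTACCTC match along the annotated 3′ UTR of the 7 genes and LIN28A, in bases after the stop codon; grey bars give the UTR length, triangles mark matches followed by A, and open symbols mark matches outside the exons of the record. TRIM71 has 6 matches, of which 2 lie in the record, and HMGA2 and LIN28B each have 1 match within 50 bases of the stop codon.

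The TRIM71 record stopped early. Its exons covered 7.77% of the annotated 3′ UTR and held only 2 of the 6 matches, whereas the records of the other members held every match found. The FPKM of TRIM71 was thus computed over a transcript model of 3137 exon bases that lacks most of a 3′ UTR of 6013 bases.

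From day 0 to day 18 all 7 members were lower, all past 2-fold, against 29.9% of the expressed coding records that were lower past 2-fold. The median change was −2.00 over the members and −0.60 over the coding records, of which 76.1% were lower at all. Relative to the median change of all expressed records, 5 of 7 members remained past 2-fold (12.8% of coding records), the exceptions being IGF2BP2 and IGF2BP3. With each day rescaled to sum to 1000000 the count was again 5 of 7 (10.5% of coding records).

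**Figure D2:**
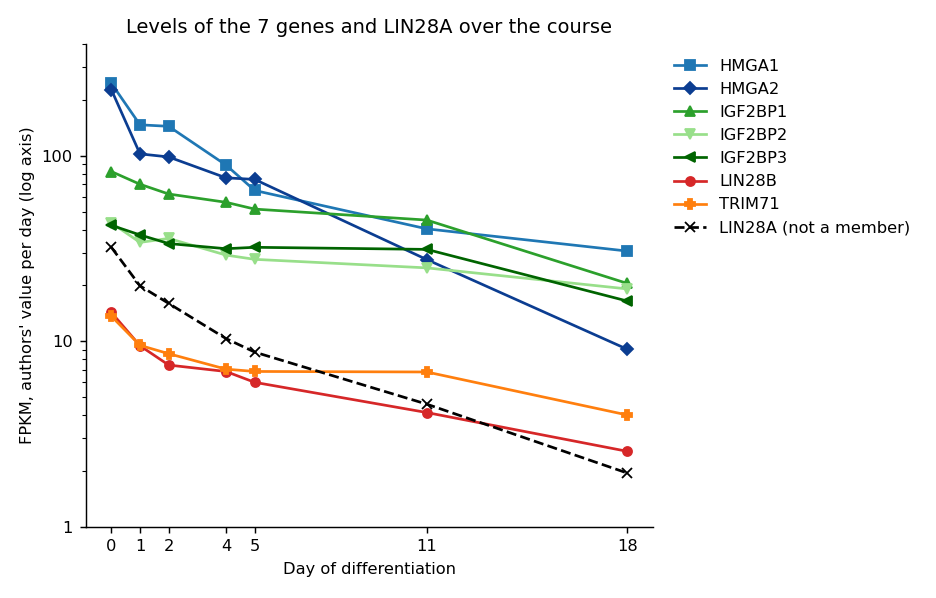
FPKM of the 7 genes and of LIN28A (dashed) on each day, on a log axis; each point is the authors' single value for that day, so no error bars can be drawn. HMGA2 goes from 227 to 9.04 and crosses below all 3 IGF2BP genes by day 18, and LIN28A goes from above to below LIN28B.

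LIN28B, the let-7 inhibitor on chromosome 6 (chr6:105404923-105531206, plus strand), was a gene of middling level. Its FPKM was 14.3 on day 0, 9.46 on day 1, 7.44 on day 2, 6.87 on day 4, 6.01 on day 5, 4.13 on day 11 and 2.55 on day 18. Each day was lower than the one before, and day 18 kept 17.8% of the day 0 level, a log2 difference of −2.44 (−1.88 relative to the median). About as much of this difference lay before day 5 as after it, 50.7% having been reached by then. LIN28B ranked 457th of 11793 coding records by size of decrease, and in level it went from rank 5220 to rank 9866.

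Its paralogue LIN28A, listed under the older symbol LIN28, is no member but acts in the same step. Its FPKM over the 7 sampled days in order was 32.1, 19.9, 16.0, 10.3, 8.74, 4.58 and 1.95, a difference of −3.98. LIN28A stood at 2.24 times LIN28B on day 0, at 1.11 times on day 11 and at 0.763 times on day 18, so the order of the paralogues turned between the last sampled days. POU5F1 and NANOG, the defining factors of pluripotent cells, were near 0 throughout (means of 0.0620 and 0.0106 FPKM), while LIN28A, LIN28B and the pluripotency-associated gene DPPA4 (9.72 on day 0 and 2.25 on day 18) were well above it.

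HMGA1 (chr6:34204577-34214007, plus strand) had the highest level of the 7 on every day but days 5 and 11. Its FPKM was 246 on day 0, 147 on day 1, 144 on day 2, 89.0 on day 4, 65.0 on day 5, 40.3 on day 11 and 30.6 on day 18. The difference of −3.00 (−2.44 relative to the median), or 8.02-fold in FPKM, was spread over the course, with only −0.03 between days 1 and 2. By day 5, 63.9% of it had been reached, the largest such share among the members, and days 11 to 18 added only 13.2%. HMGA1 has processed pseudogenes elsewhere in the genome, and the alignment and counting were run with default options, whose treatment of shared reads is not spelled out in the sources used here, so its level is uncertain.

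HMGA2 (chr12:66217437-66360068, plus strand) had the largest difference of all members. Its FPKM was 227 on day 0, 102 on day 1, 98.5 on day 2, 76.0 on day 4, 74.5 on day 5, 27.6 on day 11 and 9.04 on day 18. Day 18 kept 3.98% of the day 0 level, 25.1-fold less, with a log2 difference of −4.64 (−4.08 relative to the median). This decrease ranked 42nd of 11793 coding records. HMGA2 went from rank 188 to rank 5429 in level, where HMGA1 went from 167 to 1375.

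The decrease of HMGA2 was uneven from step to step. It changed by −1.15 on the log2 scale in the first day, by −0.05, −0.37 and −0.03 in the next 3 steps, by −1.43 between days 5 and 11 and by −1.60 between days 11 and 18. Only the steps between days 1 and 2 and between days 4 and 5 were nearly flat, and the latter was 0.04 or 0.07 when recentred or rescaled. The ratio of HMGA2 to HMGA1 was 0.925 on day 0, 0.684 on day 2, 1.15 on day 5, when HMGA1 was the lower of the pair, and 0.295 on day 18.

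IGF2BP1 (chr17:47074774-47133505, plus strand), the most abundant of the 3 IGF2BP genes on every day, was lower on each day than on the one before. Its FPKM was 82.2 on day 0, 70.1 on day 1, 62.2 on day 2, 56.1 on day 4, 51.5 on day 5, 45.0 on day 11 and 20.5 on day 18. The total difference was −2.00 (−1.44 relative to the median), of which −1.13 lay between days 11 and 18, the longest step. IGF2BP1 had the highest level of the 7 on day 11, ahead of HMGA1.

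IGF2BP2 (chr3:185361528-185542827, minus strand) had the smallest difference of the 7. Its FPKM was 43.5 on day 0, 34.1 on day 1, 35.8 on day 2, 29.1 on day 4, 27.6 on day 5, 24.9 on day 11 and 19.1 on day 18. Day 18 kept 44.0% of day 0, a difference of −1.18. Relative to the median change the difference was −0.62, and by size of decrease it ranked 2690th. Day 2 was slightly above day 1, by 0.07, which became −0.02 with each day rescaled to the same sum.

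IGF2BP3 (chr7:23349829-23509995, minus strand) stayed between 31.3 and 33.6 FPKM on the days from 2 to 11. Its FPKM was 42.2 on day 0, 37.4 on day 1, 33.6 on day 2, 31.5 on day 4, 32.1 on day 5, 31.3 on day 11 and 16.5 on day 18. Of its total difference of −1.35 (−0.79 relative to the median), 68.2% lay between days 11 and 18, the largest such share among the members. Day 5 was above day 4 by 0.03.

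The summed FPKM of the IGF2BP genes was 168 on day 0, 101 on day 11 and 56.1 on day 18. IGF2BP1 made up 49.0% of this sum on day 0 and 36.5% on day 18, IGF2BP2 25.9% and 34.1%, and IGF2BP3 25.1% and 29.4%. The family thus went from a sum led by IGF2BP1 to one shared almost evenly, and most of that shift lay after day 11, when IGF2BP1 still made up 44.5%.

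**Figure D3:**
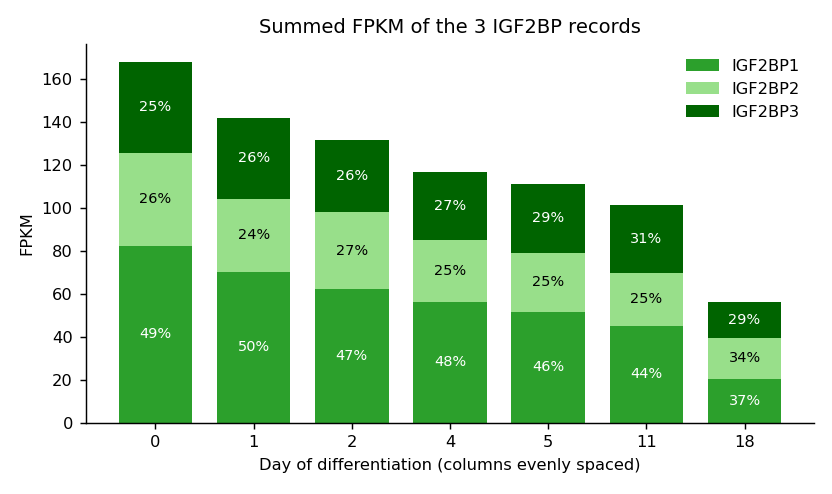
Summed FPKM of IGF2BP1, IGF2BP2 and IGF2BP3 on each day, with each gene's percentage of the sum printed in its block; bars start at 0 and are the authors' single values per day. The sum goes from 168 to 56.1, and the share of IGF2BP1 goes from 49.0% to 36.5%.

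TRIM71 (chr3:32859510-32933770, plus strand) had a level like that of LIN28B on day 0 and stayed above it from day 1. Its FPKM was 13.6 on day 0, 9.50 on day 1, 8.57 on day 2, 7.07 on day 4, 6.87 on day 5, 6.83 on day 11 and 4.00 on day 18. As deposited it was lower on every later day, but the change between days 5 and 11 was only −0.01 on the log2 scale. That change became 0.14 recentred and 0.13 rescaled, and the change between days 4 and 5, −0.04 as deposited, became 0.03 and 0.06. Day 18 kept 29.3% of day 0, 3.41-fold less, and the difference was −1.19 relative to the median.

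The order of the 7 by FPKM changed over the course. On day 0 it ran HMGA1, HMGA2, IGF2BP1, IGF2BP2, IGF2BP3, LIN28B and TRIM71, and on day 18 it ran HMGA1, IGF2BP1, IGF2BP2, IGF2BP3, HMGA2, TRIM71 and LIN28B. Neighbours in these orders often lay close, such as IGF2BP2 and IGF2BP3 (43.5 and 42.2) or LIN28B and TRIM71 (14.3 and 13.6) on day 0, and whether such neighbours differ beyond the spread between cultures cannot be told from 1 value a day.

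In single steps few members moved past 2-fold. Between days 0 and 1 only HMGA2 did so, downward (3.09% of coding records). All 7 were lower in this step (59.7% of coding records), with a median change of −0.52 against −0.11 over the coding records. With each day rescaled to the same sum HMGA2 was at −0.94 in this step, so that no member passed (1.51% of coding records), and IGF2BP3 turned from −0.17 to 0.04. No member was past 2-fold between days 1 and 2 (0.144% of coding records), days 2 and 4 (0.653%) or days 4 and 5 (0.0509%). Between days 5 and 11 HMGA2 again was the only one (4.24%), while TRIM71, IGF2BP3, IGF2BP2 and IGF2BP1 changed by between −0.20 and −0.01. In the last step HMGA2 and IGF2BP1 were past 2-fold (3.72%), and the members' median change of −0.76 stood beside −0.28 over the coding records. IGF2BP1 no longer passed when recentred (−0.86, with 1.40% of coding records past 2-fold) or rescaled (−0.79, with 1.21%).

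The steps differ in length, so the changes were also divided by days. HMGA2 changed by −1.15 per day in the first step, by −0.19 per day between days 2 and 4 and by −0.24 and −0.23 per day in the last 2 steps. IGF2BP1 changed by −0.23 per day in the first step, −0.17 in the second, −0.03 between days 5 and 11 and −0.16 between days 11 and 18, so its last step was the largest in all but not per day. LIN28B changed by −0.59 per day at first and by −0.09 and −0.10 per day at the end. IGF2BP3 changed by −0.17 per day at first, by −0.01 per day between days 5 and 11 and by −0.13 per day in the last step.

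**Figure D4:**
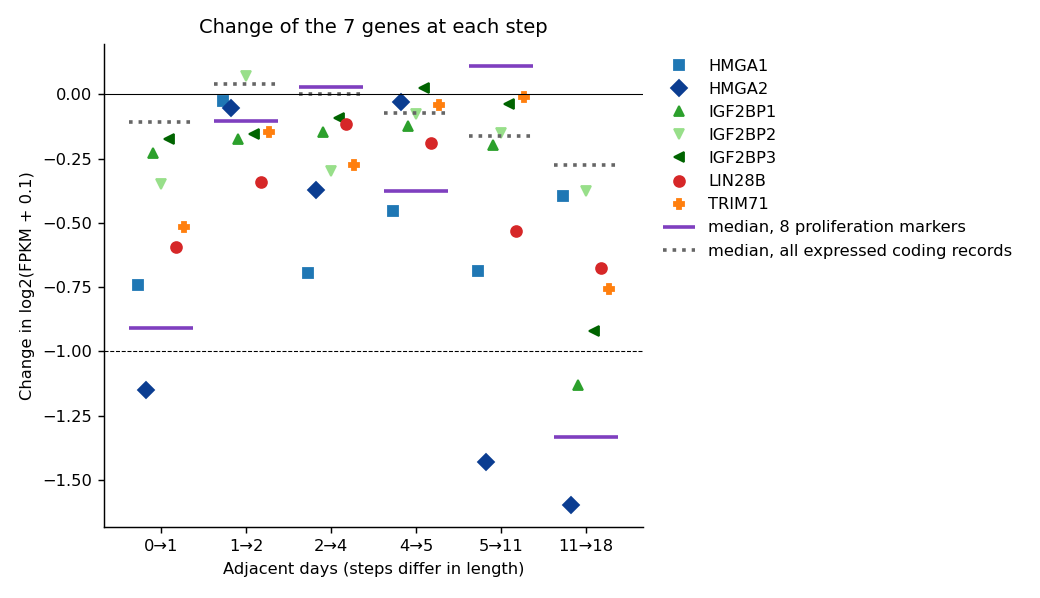
Change in log2(FPKM + 0.1) of each of the 7 genes between adjacent days, with the median change of 8 proliferation markers (solid) and of all 11793 expressed coding records (dotted); the dashed line is a 2-fold decrease and symbols are offset sideways for legibility. HMGA2 passes the dashed line in 3 steps and IGF2BP1 in 1, and the proliferation median is above 0 from day 5 to day 11.

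Markers of other cell states differed over the same days. All 8 proliferation markers were lower past 2-fold on day 18, as deposited (29.9% of coding records) and relative to the median change (12.8%). Their median was −2.50 as deposited, and their summed FPKM was 758 on day 0 and 148 on day 18. All 5 expressed mesenchymal markers were lower (76.1% of coding records), 4 of them past 2-fold (29.9%). Their median was −3.11, with sums of 697 and 54.9. The sixth, COL1A1, was listed at 0 on every day, like the IGF2 and ACTB records below, and is likewise not read. Of the 8 neuron markers 6 were higher past 2-fold (7.57% of coding records), with a median of 2.00 and sums of 724 and 1758. The others held most of the day 0 sum. They were TUBB3, in a record merged with MC1R and TUBB2C (382 and 502 FPKM on days 0 and 18), and GAP43 (193 and 173).

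Among 5 neural progenitor markers SOX2 was 126 on day 0 and 66.1 on day 18, NES was 513 and 180, and PAX6 was 4.31 and 10.4, with a median change of −0.94 over the list. None of 5 astrocyte and oligodendrocyte markers reached the minimum. In these bulk RNA samples fewer cells of a type and less RNA per cell cannot be told apart, and the part of these shifts in the members' changes was not tested.

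The markers and the members did not share every step. Between days 5 and 11 the proliferation median was 0.11, with 2 of 8 markers lower (71.3% of coding records). HMGA2 changed by −1.43 in this step, HMGA1 by −0.69 and LIN28B by −0.53. IGF2BP1, IGF2BP2, IGF2BP3 and TRIM71 were nearly flat, between −0.20 and −0.01, beside a coding median of −0.16. In the same step the mesenchymal median was −1.36, with all 5 lower. In the last step the proliferation median was −1.33. All 8 of these markers and all 7 members were lower, as were 81.4% of coding records. In the first step the proliferation median was −0.91 and that of the mesenchymal markers −0.15, although the mesenchymal sum went from 697 to 389.

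Besides LIN28A, the genes that make, load or destroy let-7 mostly lay near the coding median. Of 14 such genes other than LIN28B, all above the minimum, 12 were lower on day 18, 4 past 2-fold, and none was higher past 2-fold (median −0.70). Over all expressed coding records 76.1% were lower and 29.9% lower past 2-fold, so the count past 2-fold is near the background. The 4 were LIN28A, KHSRP, a let-7 maturation factor (91.5 and 35.6 FPKM on days 0 and 18), XPO5, the exporter of precursor hairpins (33.5 and 14.9), and TARBP2, a DICER1 partner (25.0 and 12.2). Relative to the median change only LIN28A stayed past 2-fold in the downward direction, and the median of the list was −0.14.

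DICER1, which cuts the hairpins, was 29.3 on day 0 and 17.5 on day 18, a difference of −0.74. The enzymes that act with LIN28 proteins on let-7 precursors were flatter. ZCCHC11, which adds uridines to the precursor, was 14.1 and 15.5, ZCCHC6 was 5.30 and 4.80, and DIS3L2, which degrades the uridylated precursor, was 8.42 and 7.43. The largest increase of the list was that of EIF2C4 (AGO4, an Argonaute protein that carries microRNAs), from 3.99 to 6.36 FPKM, or 0.66.

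Mature let-7 was not measured, because these libraries hold polyadenylated RNA. Of the 12 annotated let-7 hairpins, 7 were spanned by no record on their strand. The hairpins of let-7f-2 and miR-98 lie in introns of HUWE1, a ubiquitin ligase gene at 52.2 FPKM on day 0 and 38.3 on day 18, and that of let-7g lies in an intron of WDR82, a histone methylation cofactor gene at 52.4 and 51.8. Those of let-7a-3 and let-7b lie in an exon of a record with no symbol and a mean of 0.00758 FPKM. The level of a host mRNA is not that of the microRNA in its intron.

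Another 24 let-7 targets were set beside the members, and 23 were above the minimum. All 23 were lower on day 18 (76.1% of coding records) and 13 were lower past 2-fold (29.9% of coding records), with a median of −1.09. Relative to the median change 5 were past 2-fold (12.8% of coding records), with a median of −0.53. The largest decrease was that of ARID3A, a DNA-binding factor, from 9.02 to 1.51 FPKM (−2.50), followed by CDC25A, a phosphatase that drives the cell cycle, from 25.3 to 5.01 (−2.31). The smallest was that of BACH1, a repressor of haem-regulated genes, from 12.3 to 9.38 (−0.39). HMGA1 and HMGA2 thus had larger decreases than any gene of this list. LIN28B, IGF2BP1, IGF2BP2, IGF2BP3 and TRIM71 all lay within its range.

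**Figure D5:**
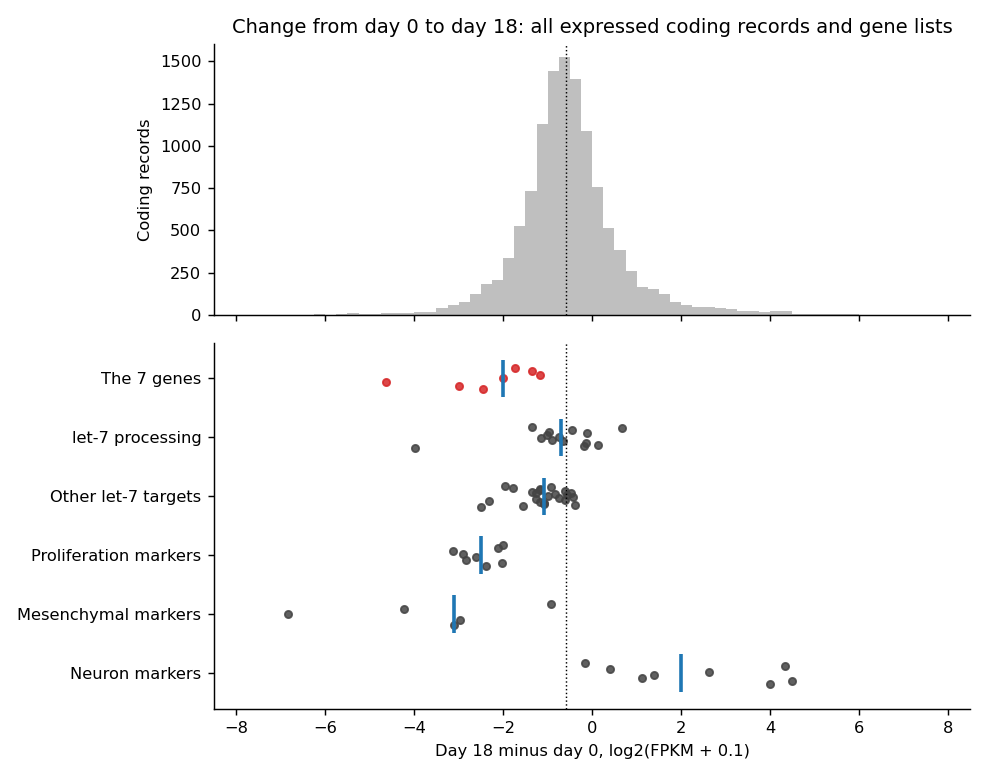
Top, number of the 11793 expressed coding records in each 0.25-wide bin of change from day 0 to day 18 in log2(FPKM + 0.1), with 2 records beyond 8.5 in size not drawn; bottom, the 7 genes and the expressed members of 5 lists, with blue bars at list medians and a dotted line at the coding median of −0.60. The 7 genes lie between −4.64 and −1.18, all left of the dotted line.

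The number of let-7 matches and the size of the change did not run wholly in parallel among the members. HMGA1 had 1 match, not followed by A, and a difference of −3.00. The other members with 1 match, IGF2BP2 and IGF2BP3, had the smallest differences, −1.18 and −1.35. HMGA2 had 4 matches and −4.64, LIN28B 4 and −2.44, IGF2BP1 4 and −2.00, and TRIM71 6 in its annotated UTR and −1.745. A relation between matches and change was not tested. Over the matched expressed coding genes the median change was −0.62 with no match (9928 genes), −0.56 with 1 (1110 genes), −0.51 with 2 (125 genes) and −0.56 with 3 or more (29 genes). Without the members the last value was −0.44 (25 genes), and the median was no lower in the classes with more matches than in the class with none.

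Long 3′ UTRs hold more matches by their length. Among genes with a UTR of 2000 to 5000 bases, the medians were −0.53 with no match (2717 genes), −0.55 with 1 (480 genes), −0.75 with 2 (44 genes) and −1.22 with 3 or more (9 genes). The last class is small and includes LIN28B and HMGA2.

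IGF2BP proteins are named for their binding to IGF2 mRNA, but the record that carries the IGF2 symbol, merged with INS, was listed at 0 on every day, as was the merged ACTB record, so neither can be read. Of 7 transcripts known to be bound by IGF2BP proteins, 4 were above the minimum, and 2 of these were lower past 2-fold on day 18 (29.9% of coding records). CD44, a cell surface receptor, was 12.4 on day 0 and 2.70 on day 18 (−2.16), and MYC was 16.0 and 6.61 (−1.26, or −0.70 relative to the median change). BTRC, a ubiquitin ligase subunit, was 6.39 and 8.60 (0.42). H19, the noncoding RNA neighbour of IGF2, was below the minimum at 2.20 and 0.0687.

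CDKN2A and CDKN2B, adjoining genes for cell cycle inhibitors at a locus that HMGA2 is known to hold down in neural stem cells, were low. CDKN2A was 3.26 FPKM on day 0 and 1.30 on day 18 (−1.26), and CDKN2B was 1.98 and 1.19 (−0.69). Both were lower on day 18, as were HMGA2 and 76.1% of coding records. Relative to the median change the differences were −0.70 for CDKN2A and −0.13 for CDKN2B, neither past 2-fold. A link to HMGA2 was not tested.

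The shapes of the members' courses were compared by centring each gene's 7 log2 values and taking the root mean square difference between genes, a distance in log2 units. The values were not scaled, so this distance reflects the size of the changes as well as their timing. The closest pairs of members were IGF2BP2 and TRIM71 (0.17) and IGF2BP2 and IGF2BP3 (0.18), and the farthest was HMGA2 and IGF2BP2 (1.06). HMGA1 and HMGA2 differed by 0.57, so these family members were less alike than any pair of the IGF2BP genes, which differed by 0.18 to 0.29.

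Among all expressed coding records, those most like LIN28B were the merged MUTED and TXNDC5 record (0.0855), EPB41L2, a membrane skeleton gene (0.0859), and SEPT10, a septin gene (0.103). Those most like HMGA2 were IFITM3, an interferon-induced membrane protein gene (0.169), IL13RA1, a cytokine receptor gene (0.174), and OAF (0.187). Those most like HMGA1 were the kinase genes STK10 (0.156) and IRAK1 (0.159) and the cytokine gene LIF (0.185). HMGA1 and HMGA2, the members with the largest decreases, had more distant nearest records than the other members.

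Near IGF2BP1 in shape were a record with no symbol (0.0585) and FKBP10, a collagen chaperone gene (0.0951). For IGF2BP2 they were the merged CSNK1G2 and CSNK1G3 record (0.0357), IMMT, a mitochondrial inner membrane gene (0.0417), and CDKN2AIPNL (0.0519). For IGF2BP3 they were NUDT6 (0.0500), which lies antisense to FGF2 and so is uncertain, a record with no symbol (0.0511) and ANTXR2 (0.0646). For TRIM71 they were ALDH7A1, an aldehyde dehydrogenase gene (0.0555), SNRPA, a U1 snRNP gene (0.0807), and BAZ1A, a chromatin remodelling gene (0.0878). No member of the group was among the 3 records nearest to another.

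Several records overlap the members or lie within 50000 bases. A lincRNA record antisense to the end of IGF2BP1 (chr17:47121990-47133995, minus strand) had 73.0% of its exon bases inside IGF2BP1 exons and was 4.98 on day 0 and 2.18 on day 18. The counting is not stated to use strand, so reads of this record and of IGF2BP1 cannot be told apart. The antisense RPSAP52 record at the start of HMGA2 shared no exon bases with it and stayed at or below 0.227 FPKM, and a second antisense record in HMGA2, with no symbol and 7.30% of its exon bases in HMGA2 exons, at or below 0.273.

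Neighbouring genes differed from each other in direction. Downstream of HMGA1, C6orf1 on the opposite strand and 151 bases away was 6.80 on day 0 and 10.3 on day 18, and the lincRNA record linc-C6orf1-AS, 2401 bases away, was 21.3 and 30.0. C7orf30, on the opposite strand 647 bases from IGF2BP3, was 25.7 and 10.7 (−1.26), close to the −1.35 of IGF2BP3. Near LIN28B, BVES was 2.29 and 0.742, and near TRIM71, CNOT10 was 15.1 and 8.47.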

How the data were processed

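Polyadenylated RNA of H1-derived NPC cultures was sequenced by the study on 7 days of differentiation (20 cultures, grouped by the day in the labels). Per the study's methods and the labels, the authors used TopHat2 to align to hg19, Cufflinks for transcript assembly and Cuffdiff2 to estimate FPKM over the cultures of each day, so the deposited FPKM table holds 1 value per record and day, normalised to mapped fragments and transcript length. TopHat2 and Cuffdiff2 were run with default options. What these set for strand and multiply mapped reads, and the versions, are not spelled out in the sources used here. The deposited table of adjacent-day comparisons holds the authors' FPKM pairs, log2 fold changes, test statistics, p and q values; none was used, and only its identifiers, symbols and exon positions were taken.

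Records were joined by identifier, and differences of log2(FPKM + 0.1) were taken with Python 3.11.15, pandas 2.3.3 and NumPy 2.4.6. The background was the coding records averaging 1 FPKM or more. Scripts were tested on simulated data. Levels were also recentred on the median change of expressed records, or rescaled to 1000000 per day. Seed matches were sought in GENCODE 44 (lift37) 3′ UTRs, and mature let-7 sequences came from RefSeq. Named genes were the 7 members, the 3 records nearest to each in shape, the extremes of each list with genes singled out for a role, and records within 50000 bases; some of the genes so chosen are not reported here. The members and lists were chosen with earlier results of these data known. No value has a replicate error, and depth is unknown.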

Additional observations from a re-analysis of the deposited data

How the results depend on the processing

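All 42 alternative values of the members' change from day 0 to day 18 (7 genes under 6 settings) stayed below 0. For 1 setting, the sum over all coding records of a symbol, the 7 values could not differ from the main ones. Each symbol had only 1 record, so these 7 values add no check. No paired analysis was possible because the deposited table holds 1 value per day with no columns for single cultures, and for the same reason no culture could be left out. With each day rescaled to sum to 1000000, the change was −1.76 for LIN28B, −2.28 for HMGA1, −3.93 for HMGA2, −1.28 for IGF2BP1, −0.46 for IGF2BP2, −0.64 for IGF2BP3 and −1.04 for TRIM71, and recentred on the median it was −0.62 for IGF2BP2 and −0.79 for IGF2BP3. For the mean of days 11 and 18 against the mean of days 0 and 1 it was −1.80 for LIN28B, −3.16 for HMGA2, −1.22 for IGF2BP1, −0.82 for IGF2BP2, −0.74 for IGF2BP3 and −1.08 for TRIM71, a weaker contrast by construction. The count of members lower past 2-fold went from 1 to 0 between days 0 and 1 when so rescaled, and from 2 to 1 between days 11 and 18 under either scaling, IGF2BP1 being the one lost. At a log2 limit of 0.5 the counts were 4 between days 0 and 1 (16.8% of coding records), 1 between days 2 and 4 (4.08%), 3 between days 5 and 11 (14.5%) and 5 between days 11 and 18 (21.3%). Recentring left 5 of 13 other let-7 targets, 1 of 4 let-7 processing genes (with 1 then higher), 1 of 2 IGF2BP-bound transcripts, 0 of 1 neural progenitor markers and 0 of 1 CDKN2 genes lower past 2-fold. Pseudocounts of 0.01 and 1 took no member across the 2-fold limit in any comparison; the lists were run with recentring only. Of 42 single-step changes of the members, 5 turned in sign when recentred and 7 when rescaled, with turned values between −0.02 and 0.14. Without the filter on low values, 20.1% of coding records were lower past 2-fold on day 18. Single values per day and unknown depth limit every statement to these pooled estimates.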

Other observations

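Some let-7 targets outside the group did not change steadily. IGDCC3, a gene for a cell surface protein of the immunoglobulin family, with 4 let-7 seed matches in its 3′ UTR, was 51.1 FPKM on day 0, 87.6 on day 11 and 34.6 on day 18, so its whole net decrease came after day 11. HIC2, a transcriptional repressor gene, also with 4 matches, was 11.5 on day 0, 12.2 on day 11 and 8.49 on day 18. NR6A1, an orphan nuclear receptor gene with 5 matches, was 1.58 on day 0, 2.43 on day 2 and 0.997 on day 18. These were the 3 genes of the 24 listed targets with 3 or more matches. None was lower past 2-fold on day 18, beside 29.9% of coding records. Of the 29 expressed genes with 3 or more matches, members included, 41.4% were. Without the members it was 32% of 25 genes, near the 30.6% of genes with no match. A count over 3 genes is too small to set against these shares.

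THBS1, an extracellular matrix gene with no match in its annotated 3′ UTR, was 63.0 on day 0, 90.2 on day 4 and 16.1 on day 18. NR2E1, a neural stem cell nuclear receptor gene, stayed below the minimum of 1 FPKM on average and was 0.0392 on day 0 and 0.990 on day 11. Of the 24 listed targets 14 held at least 1 match.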
